A study of Mus musculus with 6 samples.

Results

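Periportal hepatocyte nuclei were taken from a study of single liver nuclei of 6 fasted mice, in which each library is 1 mouse. Of 26467 nuclei past the quality filter (at least 500 genes and 1000 UMIs, and a mitochondrial share of UMIs under 5%), 4930 passed a hepatocyte rule: Apob, Cps1, Abcb11 and Mat1a together made up at least 0.3% of the UMIs of a nucleus, and Stab2, Ptprb, Reln and Clec4f together had at most 3. A zone score was then computed for each nucleus as the log2 ratio of pericentral UMIs (Cyp2e1, Glul, Slc1a2, Gulo and Oat, plus 1) to periportal UMIs (Cyp2f2, Hsd17b13, Gls2 and Hal, plus 1). Members were chosen by this score, as the third of the nuclei with the lowest score in each library, which gave 1641 nuclei, with 255, 264 and 229 from knockouts 1, 2 and 3 and 335, 234 and 324 from controls 1, 2 and 3. They held 19998760 UMIs. The other 1648 and 1641 hepatocyte nuclei are called middle-score and high-score nuclei.

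The 3 knockout mice lacked Plvap in hepatic stellate cells, the retinoid-storing pericytes of the sinusoid, through a Cre transgene driven by Lrat. The other 3 mice were littermate controls. All were male, 18 weeks old, on chow, of the strain C57BL/6JBomTac, and fasted for 12 hours overnight. The designation Plvaptm1.1Salm-Tg(Lrat-cre)1Rshw stands in the labels of knockouts and controls alike, and Cre status of the controls is not stated. Hepatocytes are not the cells in which the deletion is driven.

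Hepatocytes differ along the path of blood through the lobule. Periportal hepatocytes meet blood rich in oxygen and nutrients and are known for urea synthesis, gluconeogenesis, amino acid breakdown and β-oxidation. Pericentral hepatocytes, near the central vein, receive Wnt signals and are known for glutamine synthesis, bile acid synthesis and cytochrome P450 metabolism. In fasting, fatty acids released by fat tissue activate the nuclear receptor PPARA in hepatocytes, which raises genes of fatty acid uptake, oxidation, ketone body synthesis and lipid droplet coating.

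The zone score had 2 modes, a large one below 0 and a smaller one above it, and the limit that separates the lowest-scoring nuclei lay inside the larger mode. That limit was -4.25, -4.09 and -4.46 in knockouts 1, 2 and 3 and -4.25, -4.00 and -4.46 in controls 1, 2 and 3. The last nucleus inside and the first outside had the same score in every library, with 52 nuclei inside and 61 outside tied at the limit. Within 0.5 of it lay 752 of the 1641 members and 783 nuclei outside. The class is therefore a range of a score and not a separate type. From 72.6% to 95.8% of the members of a library had no pericentral UMI of the score, so among them the order was set by the number of periportal UMIs, which also depends on depth. Median depth was 11601, 11573 and 11611 UMIs in the members of knockouts 1, 2 and 3 and 10454, 11779.5 and 12753.5 in those of controls 1, 2 and 3. It was higher than in the middle-score nuclei in all 6 libraries, where the medians ran from 8948 to 11295.5. When the score was computed on nuclei thinned to 1000 UMIs each, only 47.3% to 62.8% of a library's lowest-scoring nuclei were the same.

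**Figure D1:**
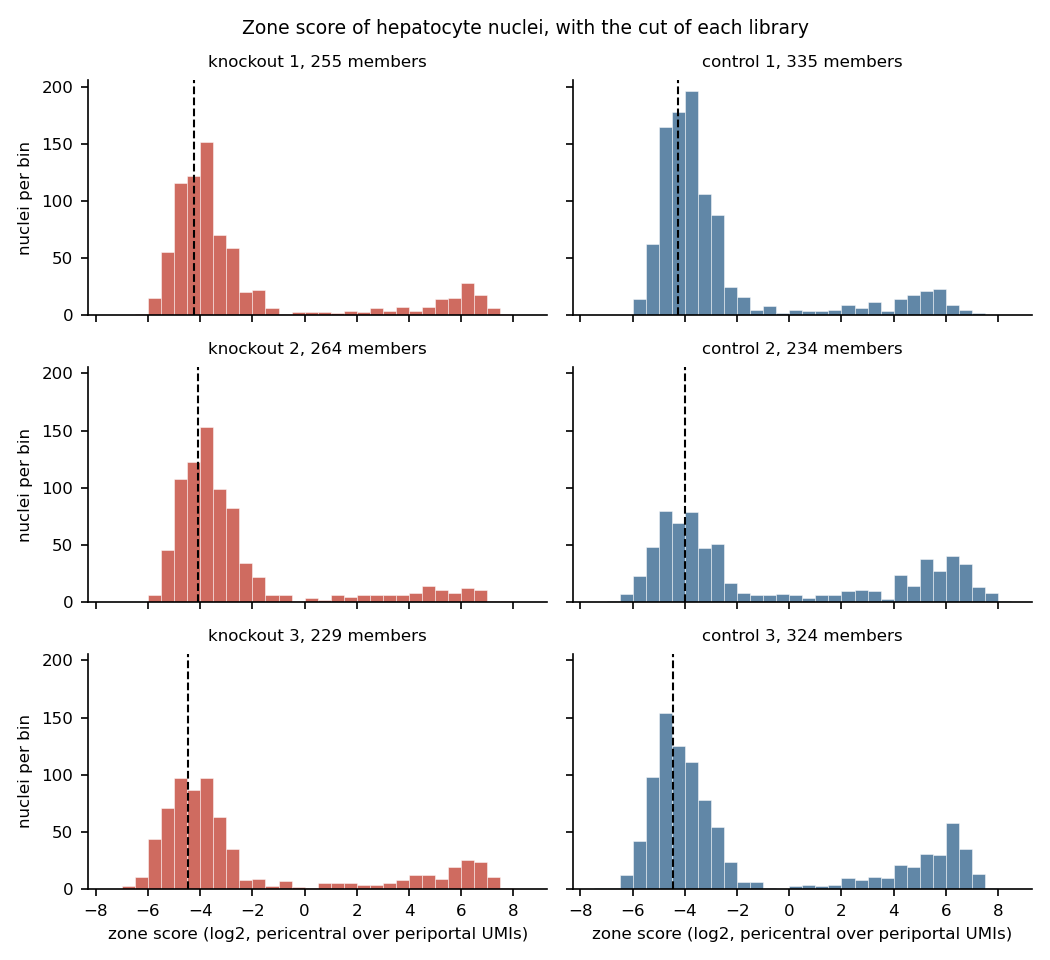
Number of hepatocyte nuclei (vertical axis, per bin of 0.5) by zone score (horizontal axis, log2 of pericentral over periportal UMIs) in each knockout library (left) and control library (right). The dashed line is the limit below which nuclei are members, between -4.00 and -4.46, and it lies inside the larger mode in all 6 panels.

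Markers outside the score were used to check the label. The 20 periportal markers that the score did not use were about as high in members as in middle-score nuclei: the mean over 6 mice was higher in members for 11 and lower for 9, the median log2 ratio was 0.01, and none was higher in all 6 mice. Sds, an enzyme of serine breakdown, averaged 1130 CPM in members and 1070 CPM in middle-score nuclei, and Ass1, of the urea cycle, 1260 CPM in members and 1240 CPM in middle-score nuclei. With the score on thinned nuclei the mean was higher in members for 16 of the 20, with a median log2 ratio of 0.04. Against high-score nuclei the same 20 markers had a median log2 ratio of 1.16. Of 21 pericentral markers outside the score, 20 had a lower mean in members than in middle-score nuclei. The median log2 ratio was -0.89 over the 20 of them that were read in both. With the score on thinned nuclei, 16 of the 21 had a lower mean in members, and the median log2 ratio was -0.31. Several of these markers were near the floor in both ranges, such as Axin2 at 0.454 CPM in members and 1.01 CPM in middle-score nuclei. The markers outside the score thus do not set the members apart from middle-score nuclei on the periportal side, and they are called low-score nuclei below.

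The 4 periportal genes of the score chose the nuclei, and their levels are given as a description with no test. Cyp2f2, a cytochrome P450, was at 602, 627 and 430 CPM in low-score nuclei of knockouts 1, 2 and 3 and at 644, 561 and 569 CPM in those of controls 1, 2 and 3. Hsd17b13, a lipid droplet dehydrogenase, was at 780, 629 and 1093 CPM in knockouts and at 566, 770 and 997 CPM in controls. For both genes the ranges of knockouts and controls overlapped. Gls2, the liver glutaminase, was at 429, 374 and 451 CPM in knockouts and at 539, 483 and 321 CPM in controls. Hal, which starts histidine breakdown, was at 773, 410 and 1748 CPM in knockouts and at 732, 1410 and 1668 CPM in controls. Hal was the most uneven of the 4, lowest in knockout 2 and then in control 1. Each of the 4 was read in at least 92.6% of the members of every library, and Cyp2e1, of the pericentral side, stayed at 4.98, 1.77 and 7.96 CPM in knockouts and at 1.28, 14.5 and 12.5 CPM in controls. CPM here are counts divided by the total of the sum, scaled by TMM over the 6 sums of low-score nuclei.

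RNA of endothelial, stellate, macrophage and lymphocyte markers was low in these nuclei. The hepatocyte rule had already left out nuclei with more than 3 UMIs of Stab2, Ptprb, Reln and Clec4f together. The summed level of 13 endothelial markers was 55.3 to 61.1 CPM in knockouts and 53.0 to 63.1 CPM in controls, and that of 11 stellate markers 25.1 to 30.9 CPM in knockouts and 22.8 to 33.7 CPM in controls. For 11 macrophage markers it was 29.2 to 66.7 CPM in knockouts and 41.5 to 53.6 CPM in controls, and for 13 lymphocyte markers 13.9 to 34.9 CPM in knockouts and 13.1 to 49.2 CPM in controls. The median nucleus held 0 or 1 UMI of each of these lists in every library. For 9 portal mesenchyme markers the sums were 7.2 to 17.6 CPM in knockouts and 15.6 to 20 CPM in controls. Cholangiocyte markers, some of which hepatocytes share, were read more often. Their median was 1 or 2 UMIs per nucleus, and 24.4% to 32.2% of a library's low-score nuclei held 3 or more. Plvap, which codes for the protein of the diaphragms of fenestrae and caveolae, had 5, 1 and 1 UMIs in all low-score nuclei of knockouts 1, 2 and 3 and 7, 6 and 7 UMIs in those of controls 1, 2 and 3. These counts are close to the floor, lie in cells that were not targeted, and a 3′ tag need not lie in the deleted part, so they check neither the deletion nor the labels. No barcode was that of a low-score nucleus in more than 1 library, although 77 barcodes of the whole series occurred in more than 1 library. Whether barcodes of low-score nuclei recur among the other nuclei of another library was not checked.

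Control 1 and knockout 2 stood apart from the other 4 libraries before any comparison of genotypes. In a principal component analysis of the 500 most variable genes of the 6 sums, the first component held 61.3% of the variance and placed control 1 and knockout 2 at -24.6 each, with knockout 1 at 2.08, knockout 3 at 12.95, control 2 at 14.4 and control 3 at 19.8. Several genes known to be high after feeding were high in this pair, but not all. Angptl8, a feeding-induced inhibitor of lipoprotein lipase, was at 10.3, 210 and 19.7 CPM in knockouts 1, 2 and 3 and at 112, 7.25 and 2.34 CPM in controls 1, 2 and 3. Pklr, the liver pyruvate kinase of glycolysis, was at 32.2, 125 and 21.6 CPM in knockouts and at 110, 33.7 and 19.5 CPM in controls. Both genes were highest in knockout 2 and control 1, by a wide margin. Igfbp1, a gene that insulin represses, was at 370, 78.6 and 572 CPM in knockouts and at 7.68, 508 and 1007 CPM in controls, and G6pc, the last enzyme of glucose release, at 1198, 491 and 580 CPM in knockouts and at 195, 1275 and 1570 CPM in controls. Tdo2, which opens the tryptophan ring, was at 2766, 673 and 3970 CPM in knockouts and at 740, 3853 and 4320 CPM in controls, lowest in knockout 2 and then in control 1. Lipogenic genes did not all follow. Acacb had 368, 236 and 360 UMIs in knockouts and 316, 560 and 1197 UMIs in controls, fewest in knockout 2 and control 1. Scd1 had 29, 29 and 48 UMIs in knockouts and 33, 22 and 27 UMIs in controls. The labels give the same 12 hours of fasting for all mice, and the cause of the pattern was not tested. Genotype comparisons are given with both libraries and, where it moves the value, without them.

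**Figure D2:**
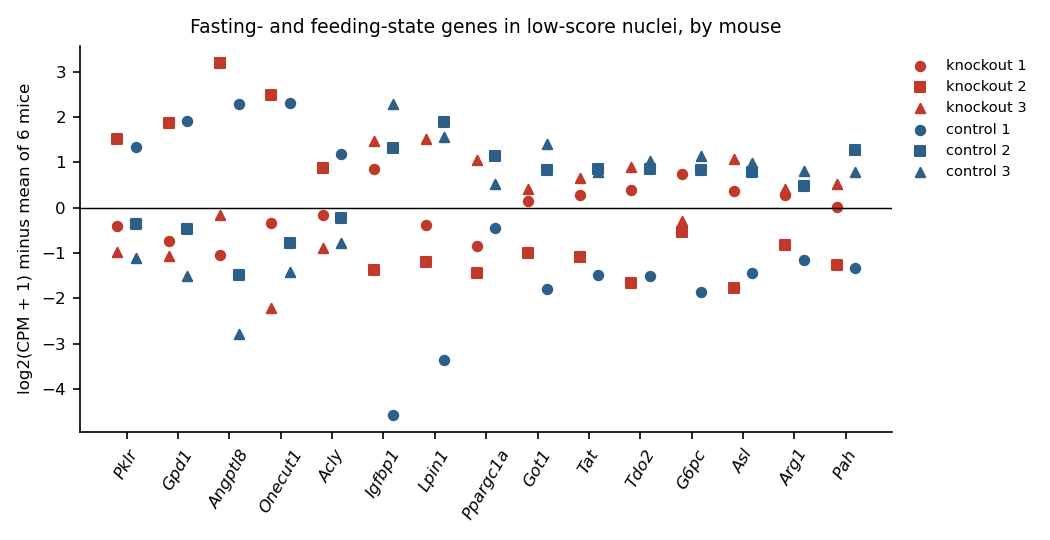
Level of 15 genes of the fed and fasted liver in low-score nuclei, as log2(CPM + 1) minus the mean of the 6 mice (vertical axis), with knockouts in red and controls in blue. Knockout 2 (red squares) and control 1 (blue circles) lie on the same side of 0 for each of these genes and mostly apart from the other 4 mice. The 15 genes were chosen after their values were seen, so this agreement describes the choice. Feeding-related genes that differ from it, such as Acacb, are not shown.

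Low-score nuclei were next set against the high-score nuclei of the same mice. Since the split was made on UMIs of these very nuclei, the differences describe it. In edgeR's quasi-likelihood test with the mouse as a block, 1200 of 11350 genes (10.6%) were called higher and 1110 (9.78%) lower in low-score nuclei at an adjusted p under 0.05, and nothing is read from these counts. The high-score nuclei were not equally pericentral in all mice, since a score above 0 was reached by 48.6%, 39.8% and 65.1% of them in knockouts 1, 2 and 3 and by 41.2%, 100% and 79.9% in controls 1, 2 and 3. Values in this and the next paragraph are the lowest, median and highest of 6 mice, on a scale shared by the 12 sums.

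The genes with the widest gap were pericentral ones that low-score nuclei lacked. Lgr5, the R-spondin receptor at the central vein, was at 0, 0.168 and 0.529 CPM in low-score nuclei and at 127, 142 and 160 CPM in high-score nuclei. Cyp7a1, the rate-limiting enzyme of bile acid synthesis, was at 0.900, 2.44 and 4.49 CPM in low-score nuclei and at 116, 230 and 377 CPM in high-score nuclei. For both genes every low-score sum lay below every high-score sum. Aldh3a2, a fatty aldehyde dehydrogenase that PPARA induces, was at 3.6, 5.04 and 7.67 CPM in low-score nuclei and at 137, 275 and 492 CPM in high-score nuclei. All 18 tested pericentral markers lay below 0, with a median log2 difference of -5.02, and 13 of 14 tested Cyp2c, Cyp3a and Cyp2b genes did so too. All 13 mitochondrially encoded transcripts were lower in low-score nuclei, with a median of -0.60, while their nuclei were deeper.

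On the high side the gaps were smaller, and all 20 tested periportal markers were above 0 with a median of 1.11. Arg1, which releases urea, was at 590, 1640 and 2270 CPM in low-score nuclei and at 346, 649 and 898 CPM in high-score nuclei (log2 difference 1.14, SE 0.256). Fbp1, of gluconeogenesis, was at 737, 968 and 1310 CPM in low-score nuclei and at 305, 499 and 775 CPM in high-score nuclei (1.02, SE 0.197). Both were higher in low-score nuclei in 6 of 6 mice, yet their ranges over mice overlapped. Cyp39a1, an oxysterol hydroxylase, was at 36.9, 177 and 290 CPM in low-score nuclei and at 23.4, 42.7 and 117 CPM in high-score nuclei. Cyp17a1, a steroid hydroxylase, was at 14.4, 51.0 and 215 CPM in low-score nuclei and at 7.61, 15.2 and 53.5 CPM in high-score nuclei. Cholesterol synthesis genes stood on this side as well: 24 of 26 tested had a higher level in low-score nuclei, with a median log2 difference of 0.81. Sqle, which makes squalene epoxide, was at 14.1, 24.3 and 62.1 CPM in low-score nuclei and at 2.07, 10.4 and 29.4 CPM in high-score nuclei. PPARA targets were divided, with 17 of 32 above 0, and Mfsd2a among them was at 113, 221 and 349 CPM in low-score nuclei and at 28.5, 65.9 and 156 CPM in high-score nuclei.

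**Figure D3:**
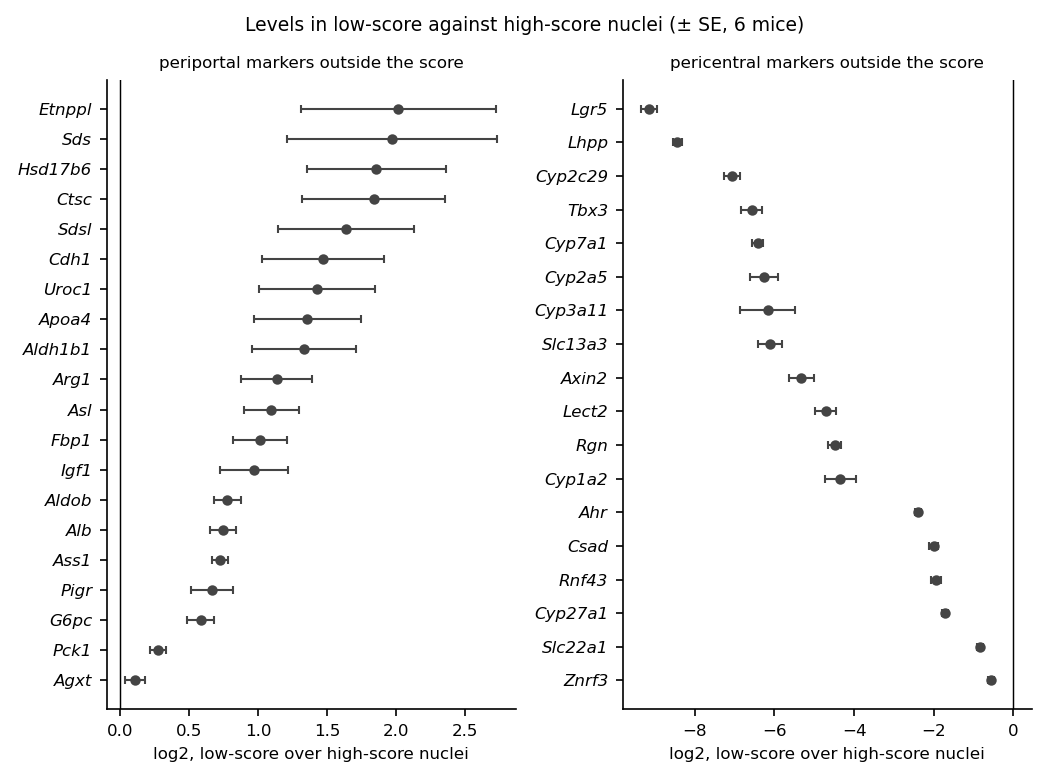
Log2 difference of low-score over high-score nuclei (horizontal axis) for periportal markers (left) and pericentral markers (right) that the score did not use, with bars of 1 SE from edgeR over 6 mice. Periportal markers lie between 0.11 and 2.02, and pericentral markers reach -9.15 for Lgr5.

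The knockout was then compared with control mice within low-score nuclei, summed per mouse. With sums, fewer nuclei that express a gene and less RNA per nucleus cannot be told apart. No gene of 11440 passed edgeR's quasi-likelihood test, at a smallest adjusted p of 0.999, and the percent called was 0. An unadjusted p under 0.05 was reached by 382 genes (3.34%), 170 with higher (1.49%) and 212 with lower levels (1.85%) in knockouts. DESeq2 called 6 of 11436 genes (0.0525%): Mfsd2a, Cd36 and Gstp2 lower, and Srgap3, Serpina1e and Abcd2 higher in knockouts. Those 6 calls rest on that tool alone. The correlation over genes was 0.972 between knockout 2 and control 1, of unlike genotype, and 0.971 between controls 2 and 3.

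The 8 named genes with lower levels in knockouts were Mfsd2a, Sulf2, Cidec, Lncbate1, Cd36, Vnn1, Snhg11 and Noct, in the order of their unadjusted p. Mfsd2a, a carrier of lysophospholipids that fasting and PPARA induce in liver (chromosome 4, 122946850 to 122961188, mm10), was at 168, 111 and 134 CPM in knockouts 1, 2 and 3 and at 266, 342 and 305 CPM in controls 1, 2 and 3. All 3 knockouts lay below all 3 controls, and the log2 fold change was -1.14 (SE 0.205). Cd36, a fatty acid translocase (chromosome 5, 17781690 to 17888801), was at 18.9, 7.39 and 6.07 CPM in knockouts and at 33.6, 59.4 and 43.7 CPM in controls (-2.06, SE 0.435). Its groups did not overlap either, but the counts behind it were 57, 25 and 16 UMIs in knockouts and 131, 164 and 168 UMIs in controls. Endothelial cells and macrophages express Cd36 too. The summed macrophage markers were at 29.2, 38.4 and 66.7 CPM in knockouts and at 41.5, 51.1 and 53.6 CPM in controls, so that 2 of 3 knockouts lay below every control, and the endothelial markers at 61.1, 55.3 and 60.3 CPM in knockouts and at 53.0, 63.1 and 55.4 CPM in controls. Their part in the Cd36 difference was not tested. Without control 1 and knockout 2 the fold changes were -1.09 for Mfsd2a and -2.01 for Cd36.

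Cidec, a protein that fuses lipid droplets (chromosome 6, 113424634 to 113435760), was at 66.8, 73.9 and 70.5 CPM in knockouts and at 142, 105 and 135 CPM in controls (log2 fold change -0.85, SE 0.170). The knockouts were close to each other and all below the controls. Vnn1, a pantetheinase and PPARA target (chromosome 10, 23894688 to 23905343), was at 13.9, 14.8 and 14.4 CPM in knockouts and at 28.4, 21.7 and 28.1 CPM in controls (-0.86, SE 0.192). Plin5, which ties droplets to mitochondria (chromosome 17, 56111601 to 56117596), was at 38.2, 40.5 and 62.9 CPM in knockouts and at 64.3, 82.3 and 68.9 CPM in controls (-0.61, SE 0.231). Here knockout 3 came within 2 CPM of control 1, without overlap. Cpt2, of the carnitine shuttle, was at 61.8, 76.2 and 71.3 CPM in knockouts and at 95.5, 90.6 and 82.7 CPM in controls (-0.36, SE 0.158). Outside lipid handling, Noct, a clock-driven phosphatase, was at 186, 164 and 149 CPM in knockouts and at 244, 348 and 300 CPM in controls. Sulf2, an enzyme that trims heparan sulfate, was at 37.5, 39.0 and 29.9 CPM in knockouts and at 70.2, 59.1 and 70.2 CPM in controls. None of these genes passed adjustment.

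The promoters of 3 of these genes are shown because PPARA is known to bind repeats of the hexamer AGGTCA, and the genes had lower levels together. Sequences are from RefSeq on GRCm38.p6, from 250 bases before to 50 bases after an annotated start, on the gene's strand, with AGGTCA on either strand in capitals. The hexamer was found on either strand in 16.3% of 32851 promoters of this length, and 2 copies in the same direction with 1 base between them (AGGTCANAGGTCA) in 0.0396%, so a single match is common. The Cd36 start is one that lies inside the span of the gene given above.
Mfsd2a, chr4:122961139-122961438, minus strand: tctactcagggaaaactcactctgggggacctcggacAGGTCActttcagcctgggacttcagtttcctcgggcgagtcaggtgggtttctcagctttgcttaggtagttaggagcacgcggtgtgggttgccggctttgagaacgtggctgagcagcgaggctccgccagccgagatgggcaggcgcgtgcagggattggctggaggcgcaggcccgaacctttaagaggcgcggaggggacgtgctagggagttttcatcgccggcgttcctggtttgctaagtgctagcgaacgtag
Cd36, chr5:17835847-17836146, minus strand: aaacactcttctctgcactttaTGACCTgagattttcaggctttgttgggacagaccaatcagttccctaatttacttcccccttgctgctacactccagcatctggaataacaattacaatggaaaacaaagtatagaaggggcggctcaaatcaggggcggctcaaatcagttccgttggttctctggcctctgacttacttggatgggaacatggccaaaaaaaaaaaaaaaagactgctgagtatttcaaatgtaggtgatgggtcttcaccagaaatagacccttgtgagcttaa
Cidec, chr6:113435711-113436010, minus strand: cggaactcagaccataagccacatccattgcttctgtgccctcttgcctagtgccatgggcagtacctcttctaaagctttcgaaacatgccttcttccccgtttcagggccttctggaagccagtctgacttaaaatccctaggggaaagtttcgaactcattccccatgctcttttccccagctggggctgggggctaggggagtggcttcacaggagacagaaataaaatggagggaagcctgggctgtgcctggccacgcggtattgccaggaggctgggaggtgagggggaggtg
Mfsd2a held 1 hexamer on the given strand at base -213 from the start, Cd36 held 1 on the reverse strand at base -228, and Cidec held none, and none of the 3 windows held the repeat. A match is a string of letters and not a bound site.

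Among 32 tested PPARA targets, 28 had a log2 fold change below 0, against 50.2% of all genes tested, and the median was -0.32, against 0.00 over all genes. In 6 of the 32 the 3 knockouts lay below the 3 controls, where 3.87% of all genes did (Cidec, Vnn1, Cpt2, Plin5, Mfsd2a and Cd36), and in none above them. The median stayed between -0.26 and -0.40 under every alternative and with each mouse left out. This list and those below were chosen with earlier results of these data known. Their counts beside the shares of all genes are therefore a description and not independent support. Ppara itself, the receptor, was at 1787, 1166 and 1870 CPM in knockouts and at 1863, 2090 and 1838 CPM in controls, and overlapped between groups. Fatty acid oxidation enzymes as a list were near the background, with 17 of 29 below 0 and a median of -0.06, and 4 of 7 ketone body genes were below 0 with a median of -0.04.

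**Figure D4:**
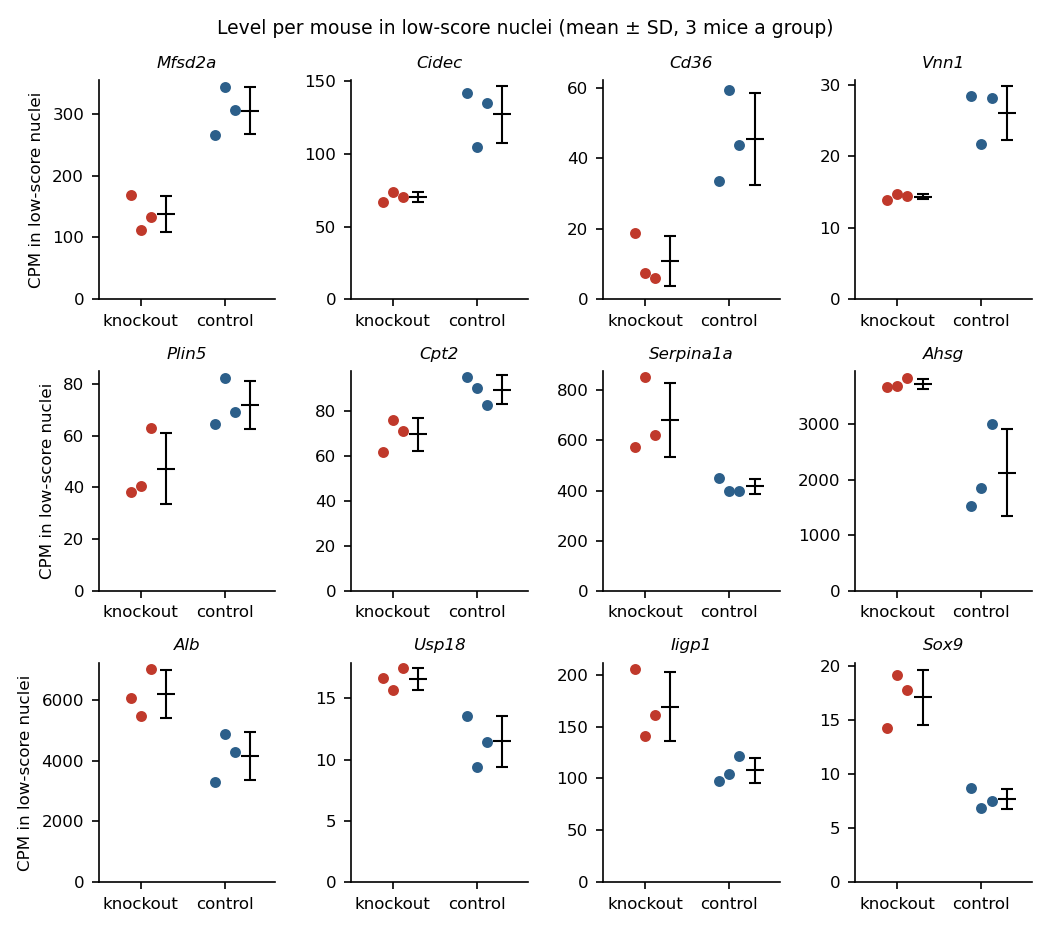
Level in CPM (vertical axis, from 0) of 12 genes in low-score nuclei of each knockout mouse (red) and control mouse (blue), with the mean and SD of 3 mice beside the points. The groups do not overlap for any of the 12 genes, and none passed adjustment in edgeR. The 12 were chosen with their values known. Of all genes tested, 3.91% lay higher and 3.87% lower in knockouts without overlap.

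Lipid droplet genes had 13 of 17 members below 0 and a median of -0.28, which was -0.07 without control 1. Plin2, the main droplet coat protein, was at 221, 347 and 258 CPM in knockouts and at 596, 376 and 301 CPM in controls, with control 1 highest. Plin4 was at 7.31, 7.09 and 20.1 CPM in knockouts and at 16.1, 34.8 and 43.5 CPM in controls. G0s2, an inhibitor of the lipase of lipid droplets, was at 230, 584 and 196 CPM in knockouts and at 1307, 458 and 137 CPM in controls, with control 1 highest. In the list of lipoproteins and lipid uptake, 15 of 24 were below 0, and in 5 the knockouts lay below the controls, where 3.87% of all genes did. Besides Cd36 and Mfsd2a these were Mttp, which loads lipid onto apolipoprotein B, at 155, 156 and 122 CPM in knockouts and at 222, 178 and 194 CPM in controls, Scarb1 and Pltp. Apoa4, a fasting-induced apolipoprotein, was at 25.6, 36.9 and 97.8 CPM in knockouts and at 58.7, 174 and 230 CPM in controls, with knockout 3 above control 1.

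Plasma protein genes stood on the other side, with 21 of 24 above 0 and a median of 0.37, against 49.8% of all genes. The 3 knockouts lay above the 3 controls in 5 of the 24, where 3.91% of all genes did. The summed level of the list was 25600, 25500 and 31400 CPM in knockouts and 17800, 19600 and 21300 CPM in controls, without overlap. Alb, serum albumin, was at 6040, 5452 and 7013 CPM in knockouts and at 3299, 4860 and 4281 CPM in controls (log2 fold change 0.57, SE 0.26). Ahsg, the carrier fetuin-A, was at 3663, 3679 and 3825 CPM in knockouts and at 1529, 1856 and 3005 CPM in controls (0.81, SE 0.296). Knockout libraries were close together in Ahsg, and the controls were spread. Serpina1e, an α1-antitrypsin, was at 654, 1413 and 835 CPM in knockouts and at 306, 389 and 404 CPM in controls (1.40, SE 0.311), and the fold change was 0.92 without control 1 and knockout 2. The Serpina1 genes are near-identical copies, so that 3′ tags may be divided between them in ways the counting decides. The median of the list ran from 0.34 to 0.49 under the alternatives and with each mouse left out.

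Major urinary proteins, liver-made carriers of pheromones and another family of near-identical copies, had 13 of 15 members below 0, against 50.2% of all genes, and a median of -0.58. In 2 of the 15 the knockouts lay below the controls and in 1 above, where 3.87% and 3.91% of all genes did. Mup12 lay above 0, with 28, 26 and 14 UMIs in knockouts and 11, 11 and 19 UMIs in controls. Mup17 was at 36.9, 43.1 and 37.1 CPM in knockouts and at 49.4, 141 and 234 CPM in controls, without overlap. Mup20 was at 712, 612 and 664 CPM in knockouts and at 712, 873 and 1386 CPM in controls, with knockout 1 and control 1 nearly equal. The median of this list was -1.31 without control 1, -0.26 without control 3 and -1.42 without control 1 and knockout 2.

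Of 16 tested interferon response genes, 14 were above 0, against 49.8% of all genes, with a median of 0.25, and in 4 the knockouts lay above the controls, where 3.91% of all genes did. Iigp1, an interferon-induced GTPase, was at 206, 141 and 161 CPM in knockouts and at 97.6, 104 and 121 CPM in controls. Irf7 had only 18, 29 and 20 UMIs in knockouts and 15, 8 and 10 UMIs in controls. Usp18, a brake on interferon signalling, was at 16.6, 15.7 and 17.4 CPM in knockouts and at 13.6, 9.42 and 11.4 CPM in controls (log2 fold change 0.52, SE 0.214), without overlap. The median of the list was 0.11 when the sixth of nuclei with the lowest score was used. Cholesterol synthesis genes had 21 of 27 above 0 and a median of 0.19, but this turned to -0.02 without control 1 and knockout 2. Sqle was at 13.9, 61.2 and 24.3 CPM in knockouts and at 41.2, 23.6 and 15.1 CPM in controls, highest in knockout 2 and control 1.

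The pathways for which periportal cells are known had values that overlapped between genotypes for most members. Of 13 urea cycle genes 9 were below 0 (median -0.15), of 19 gluconeogenic genes 15 (median -0.23) and of 28 genes of amino acid breakdown 17 (median -0.13). Pck1, which commits carbon to glucose, was at 2580, 2130 and 2896 CPM in knockouts and at 1190, 2762 and 2962 CPM in controls, and Arg1 at 1554, 723 and 1688 CPM in knockouts and at 577, 1782 and 2230 CPM in controls. In both genes control 1 was lowest and knockout 2 next. The members without overlap were Pcx, pyruvate carboxylase, at 449, 401 and 500 CPM in knockouts and at 665, 627 and 525 CPM in controls, and Cth, which makes cysteine, at 526, 367 and 723 CPM in knockouts and at 784, 731 and 757 CPM in controls. That is 0 of 13 urea cycle, 1 of 19 gluconeogenic and 1 of 28 amino acid breakdown genes. Of all genes, 3.87% lay lower in knockouts without overlap, so nothing is read from these members. Of the periportal markers themselves, 15 of 20 were below 0 with a median of -0.16. The median of the urea cycle list ran from -0.59 to 0.08 with single mice left out, and that of gluconeogenesis from -0.43 to -0.05.

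Lipogenic and glycolytic genes had 10 of 19 below 0 with a median of -0.03, bile acid genes 11 of 19 with -0.15, acute phase genes 12 of 18 with -0.13, clock genes 11 of 18 with -0.10, and genes of insulin, FOXO and IGF signalling 13 of 17 with -0.16. Among the last, Irs1, an insulin receptor substrate, was at 121, 130 and 128 CPM in knockouts and at 142, 163 and 188 CPM in controls, without overlap. Of the 17, only Irs1 lay lower without overlap, where 3.87% of all genes did. Nuclear receptors and HNF factors had 11 of 18 below 0 (median -0.04), immediate early and heat shock genes 10 of 16 (median -0.13), genes of the integrated stress and unfolded protein responses 9 of 16 (median -0.10), and the BMP and hepcidin list 5 of 14 (median 0.05). With single mice left out, the median ran from -0.35 without knockout 2 to 0.51 without control 1 for lipogenic and glycolytic genes, and from -0.33 without knockout 1 to 0.15 without control 3 for bile acid genes. It ran from -0.41 without control 1 to 0.05 without knockout 2 for acute phase genes, and from -0.47 without knockout 2 to 0.04 without knockout 1 for immediate early genes, so all 4 medians crossed 0. The list of Cyp2c, Cyp3a and Cyp2b genes, xenobiotic-metabolizing cytochromes that are mostly pericentral, had 6 of 10 above 0 and a median of 0.46, which ran from 0.15 to 0.77 with single mice left out and was -0.15 on sums of thinned nuclei, where 4 of the genes could be tested. Cyp2c68 was at 39.5, 20.4 and 30.7 CPM in knockouts and at 15.9, 3.26 and 0.781 CPM in controls, and it and Cyp2c54 were the members without overlap. That is 2 of 10, where 3.91% of all genes lay higher in knockouts without overlap. Cyp2c54 rested on 13, 17 and 14 UMIs in knockouts and 4, 8 and 10 UMIs in controls. The median of the list had the opposite sign in the other hepatocyte nuclei. It was -0.24 in middle-score nuclei, with 4 of 10 above 0, and -0.28 in high-score nuclei, with 6 of 16 above 0. Mitochondrially encoded transcripts had 12 of 13 above 0 with a median of 0.19, which was -0.08 on sums of thinned nuclei. Only 1 of the 13 lay higher in knockouts without overlap. The sign was opposite in middle-score nuclei, where 3 of 13 were above 0 with a median of -0.23. High-score nuclei had 11 of 13 above 0 with a median of 0.26.

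Genes that hepatocytes share with bile duct cells did not share a direction. Sox9, a factor of bile ducts and of hybrid periportal hepatocytes, was at 14.3, 19.2 and 17.8 CPM in knockouts and at 8.71, 6.89 and 7.54 CPM in controls (log2 fold change 1.14, SE 0.226). Its groups did not overlap, with 43, 65 and 47 UMIs in knockouts and 34, 19 and 29 UMIs in controls. Spp1, osteopontin, was at 4.98, 4.43 and 4.93 CPM in knockouts and at 12.3, 11.6 and 7.81 CPM in controls (-1.14, SE 0.285), in the opposite direction. The 11 cholangiocyte markers summed to 183, 155 and 162 CPM in knockouts and to 173, 164 and 149 CPM in controls, and Krt7 was at 0. Epcam, a defining duct marker, had 1, 0 and 0 UMIs in knockouts and 2, 6 and 3 UMIs in controls. The Sox9 fold change was 0.57 with the score on thinned nuclei. Onecut1 and Hes1 of the Notch list were highest in knockout 2 and control 1.

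A further gene with higher levels and no overlap was Srgap3, a regulator of Rac signalling, at 19.3, 12.1 and 14.8 CPM in knockouts and at 3.33, 5.07 and 5.46 CPM in controls (1.73, SE 0.301). Akr1c6, a steroid dehydrogenase, was at 103, 113 and 59.9 CPM in knockouts and at 40.7, 31.9 and 40.1 CPM in controls. In middle-score nuclei Akr1c6 overlapped, at 97.9, 82.4 and 34.6 CPM in knockouts and at 46.55, 101 and 53.4 CPM in controls (log2 fold change 0.11, SE 0.431). Abcd2, a peroxisomal transporter of very long-chain fatty acids, was at 29.2, 3.25 and 12.9 CPM in knockouts and at 1.28, 1.09 and 2.34 CPM in controls, and was named because DESeq2 called it.

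The other hepatocyte nuclei had values of the same sign for Mfsd2a, Cd36, Cidec, Vnn1 and Plin5. The genotype groups stayed apart in middle-score nuclei for Mfsd2a, Cd36, Plin5, Noct, Sulf2, Serpina1e and Srgap3. They overlapped there for Cidec, Vnn1, Cpt2, Sox9 and Spp1, so the lack of overlap of these genes in low-score nuclei was not found in middle-score nuclei. In middle-score nuclei 0 of 11295 genes passed edgeR and 341 (3.02%) had an unadjusted p under 0.05, and in high-score nuclei 0 of 11253 passed and 394 (3.5%) did. Of PPARA targets, 29 of 31 in middle-score and 28 of 32 in high-score nuclei had a log2 fold change below 0, against 50.1% and 50.4% of all genes, with medians of -0.42 and -0.43. Knockouts lay below controls in 4 of the 31 and 5 of the 32, where 3.36% and 3.6% of all genes did. Mfsd2a had a fold change of -1.13 in middle-score and -1.01 in high-score nuclei, and Cidec of -0.61 and -0.96. Plasma protein genes had medians of 0.32 and 0.51, and 20 and 22 of 24 above 0, against 49.9% and 49.6% of all genes. In 6 and 5 of the 24 knockouts lay above controls, where 3.82% and 4.47% of all genes did. These comparisons use the same 6 mice as that of low-score nuclei and are not independent of it.

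**Figure D5:**
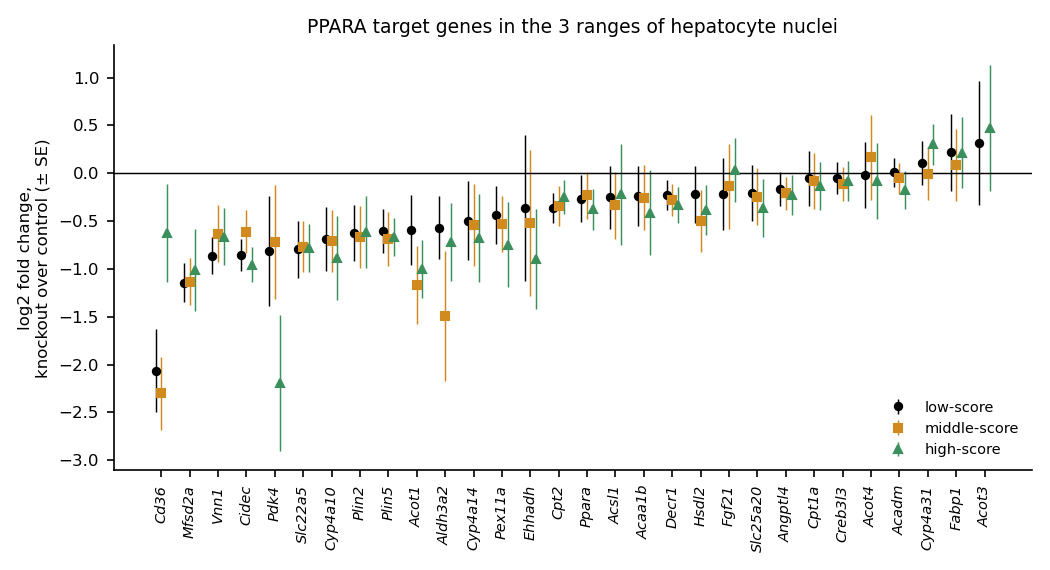
Log2 fold change of knockout over control (vertical axis, bars of 1 SE from edgeR) of PPARA targets in low-score nuclei (black circles), middle-score nuclei (orange squares) and high-score nuclei (green triangles), ordered by the value in low-score nuclei. In low-score nuclei 26 of the 30 shown lie below 0, and the 3 ranges mostly overlap within their errors.

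Whether the knockout effect differed between low-score and high-score nuclei was tested with a term for it in edgeR, with the mouse as a block. It was called for 5 of 12093 genes (0.0413%). Ces1c, a plasma carboxylesterase, was at 236, 137 and 208 CPM in low-score nuclei of knockouts and at 47.4, 99.6 and 70.7 CPM in those of controls, and in high-score nuclei at 338, 232 and 327 CPM in knockouts and at 131, 266 and 192 CPM in controls. The genotype groups were apart in low-score nuclei and overlapped in high-score ones (log2 difference of the effects 0.80, SE 0.117, adjusted p 0.0113 in edgeR). Susd4, a complement inhibitor, was at 12.9, 23.5 and 15.7 CPM in low-score nuclei of knockouts and at 5.47, 8.78 and 5.82 CPM in those of controls, and in high-score nuclei at 119, 129 and 97.4 CPM in knockouts and at 100, 168 and 138 CPM in controls (1.61, SE 0.230, adjusted p 0.0113 in edgeR). Without control 3 neither of these calls held, Ces1c was also lost without knockout 1 and Susd4 without knockout 2, and none of the 5 genes was called without knockout 3, whereas 58 genes were called without control 1. Cd36, with a fold change of -2.06 in low-score and -0.63 in high-score nuclei, had a difference of -1.46 (SE 0.317) that did not pass, at an adjusted p of 0.293 in edgeR. Mfsd2a had a difference of -0.18 with an adjusted p of 1.00 in edgeR. On counts simulated for the comparison of genotypes in low-score nuclei, over 11297 genes, edgeR recovered 20% of the genes made to differ by 1 on the log2 scale and 88% of those made to differ by 2.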

How the data were processed

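The deposited matrices hold raw UMI counts per gene and barcode for 32285 features, per the file headers and values. The kit was Chromium 3′ v3.1 (labels). Cell Ranger 7.0.1 with mm10 stands in the submitters' processing notes, and 7.1.0 in the deposited file headers. Use of introns and of strand in counting was not stated, so overlapping and antisense genes may share reads.

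Library totals ran from 23153182 to 27199466 UMIs over 27297 barcodes. Replicate numbers follow accession order and pair no mice. Counts were summed per mouse over the member nuclei, leaving out the 17 genes of the rule. They were tested with edgeR 4.0.16 (TMM, filterByExpr, robust quasi-likelihood F test, Benjamini-Hochberg over all genes tested, threshold 0.05) in R 4.3.3. P-values of the genotype comparison rest on the spread between these mice. Where the mouse was a block, they rest on how the difference within a mouse varied from mouse to mouse. DESeq2 1.42.0, other scalings, filters, cuts of the score, thinned nuclei and left-out mice were alternatives. Doublet calls by scrublet (scanpy 1.11.5) took 805 of 26467 nuclei and 0% to 0.926% of the members of a library, and were removed only as an alternative. The procedures were tested on simulated data. Gene positions are from GENCODE M21.

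Genes named in the genotype comparison were up to 12 per direction past the threshold and, since none passed, the 8 per direction with the smallest unadjusted p, at a mean of at least 10 CPM and without predicted, clone or Rik names. Between ranges they were the 12 per direction with the largest fold change past the threshold, the same sign in 6 of 6 mice and a mean of at least 50 CPM. For the difference of effects they were the 6 per direction with the smallest unadjusted p, and of each list the 2 members with the smallest p and the 2 with the highest mean. The text gives a selection of these. Any other gene was chosen after its values were seen. The members and lists were chosen with earlier results of these data known. Of 563 listed genes, 1 was not among the features. Results for a few genes are not reported here.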

Additional observations from a re-analysis of the deposited data

Results flagged for a closer look

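A total of 5 genes stood out because the knockout effect in low-score nuclei differed from that in high-score nuclei by edgeR's test of the difference. On the log2 scale the difference was 0.80 for Ces1c and 1.61 for Susd4. It was -5.81 for Thsd4, which was at 0, 0.603 and 0.383 CPM in low-score nuclei of knockouts and at 4.95, 6.22 and 1.85 CPM in those of controls, and in high-score nuclei at 1.66, 3.99 and 17.9 CPM in knockouts and at 0.971, 2.45 and 0.909 CPM in controls. For Dock2 it was -2.56, and for Pdgfd -4.43. Dock2, known from lymphocytes and other blood cells, was at 15.8, 5.08 and 21.2 CPM in high-score nuclei of knockouts and at 2.91, 1.23 and 7.57 CPM in those of controls. The summed lymphocyte markers reached 119 CPM in high-score nuclei and 50.2 CPM in low-score nuclei at most. Their part in these differences was not tested. Thsd4, Dock2 and Pdgfd were each highest in the high-score nuclei of knockout 3, and none of the genes was called without that library.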

How the results depend on the processing

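The genotype comparison in low-score nuclei gave 0 calls under every edgeR alternative, with or without any mouse, and 6 with DESeq2. For low-score against high-score nuclei the main count of 2310 was 1450 with DESeq2 and 625 on sums of thinned nuclei, where fewer genes could be tested, 1688 to 2166 with single mice left out, and 3131 with high-score nuclei limited to scores above 0, an alternative chosen after seeing the data. The difference of effects, with 5 calls, had 73 without a filter on low counts, 0 with the score on thinned nuclei, 1 on sums of thinned nuclei, 2 with the sixth of lowest and highest score, 26 without control 1 and knockout 2, and 0 to 58 with single mice left out, where the counts were 58 without control 1, 3 without control 3, 2 without knockout 1 and 0 without knockout 3. The cause was not tested. Among uncalled differences of effects, Cidec turned to -0.06 with the score on thinned nuclei and to -0.08 with scores above 0. Mfsd2a turned to 0.18 with 1 limit common to all libraries, to 0.94 with the sixths, to 1.5 with scores above 0, to 0.14 without control 2 and to 0.01 without knockout 2 (range with single mice left out -0.69 to 0.14). Vnn1 turned to 0.02 without control 1 (range -0.45 to 0.02). The called Pdgfd turned to 1.05 with the score on thinned nuclei. In all, 719 other values of single genes kept their direction and side of the threshold, 101 no longer passed and 8 newly passed. Knockouts could not be paired with controls because the labels give the mice no shared replicate numbers. Depth limits low genes such as Plvap and Irf7, and membership itself, since low-score nuclei were the deepest.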
